A study of Bos taurus with 56 samples.

Results

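Regions of open chromatin that had a peak in 4-cell embryos, 2-cell embryos or both, and in no other stage examined, were studied in cattle (Bos taurus). Open chromatin was mapped by ATAC-seq, in which a transposase cuts accessible DNA and inserts sequencing adapters, so that the sequenced fragments pile up as peaks. Overlapping peaks (1 bp or more) of the 11 deposited peak lists were joined into 482097 regions, and a region was assigned to every list with a peak in it. The rule left 3258 transient regions, of which 2260 had a peak in the 4-cell list alone (4-cell-only), 992 in the 2-cell list alone (2-cell-only) and 6 in both of these lists (both-stage). The presence calls that chose these regions are thus a description and not a finding. Regions found in a single list made up 83.0% of all regions, most of them from the day 14 list.

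The lists were made by the submitters from 56 libraries, each from pooled oocytes or embryos, with 6 libraries of 4-cell embryos and 6 of 2-cell embryos. The other 9 lists came from 6 libraries of immature oocytes at the germinal vesicle stage (GV), 5 of mature oocytes at metaphase II (MII), 5 each of 8-cell and 16-cell embryos, 6 of morulae and 4 of morulae derived in vivo, 3 of blastocysts and 4 of blastocysts derived in vivo, and 6 of day 14 elongating embryos. The labels give no strain, sex or treatment, and say of the groups without the in vivo label nothing on how the embryos were made. Each group had 1 merged list with positions alone, so no spread between libraries could be computed, no test was possible, and the read depth behind any peak was unknown. A region without a peak in a list is thus one that was not called there, and is not shown to be closed. The intervals below are 95% exact Clopper-Pearson intervals, which cover counting error only and take neighbouring regions as independent.

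At the 2-cell and 4-cell stages the cattle embryo lives largely on RNA and protein stored in the oocyte, and transcription from its own genome is limited. The main activation of the bovine embryonic genome falls at about the 8-cell to 16-cell stage. In mouse embryos, accessible sites of the early cleavage stages lie at promoters, at distal regulatory elements and within transposable elements, and a part of them closes again later. No gene annotation or genome sequence of the build used by the lists was at hand, so the regions are described by place, width and neighbourhood, with no gene assigned to any of them.

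The transient regions took up a large part of both lists. Of the 5810 4-cell peaks, 2266 (39.0%, interval 37.7% to 40.3%) lay in transient regions, and of the 2636 2-cell peaks, 998 (37.9%, interval 36.0% to 39.7%). The 4-cell-only regions covered 832 kb and the 2-cell-only regions 318 kb. Counted as regions, 40.0% of the 4-cell and 39.4% of the 2-cell regions were found in no other list at all. The same share was 39.7% in GV oocytes, 56.2% in MII oocytes, 39.2% in 8-cell embryos, 33.9% in 16-cell embryos, 32.9% in morulae, 28.4% in morulae derived in vivo, 38.9% in blastocysts, 47.8% in blastocysts derived in vivo and 84.0% in day 14 embryos. The share of the early cleavage lists was close to that of GV oocytes, 8-cell embryos and blastocysts, above that of the 16-cell and both morula lists, and below that of the MII, in vivo blastocyst and day 14 lists. Among the 4-cell regions found elsewhere, 753 had the day 14 list as their sole further list, and among the 2-cell regions 333. Without the day 14 list, which held 372509 peaks, 53.2% of the 4-cell and 52.2% of the 2-cell peaks would have been transient.

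Almost no region was called at both early stages and nowhere else. A peak of both stages was found in 636 regions, of which 6 (0.943%, interval 0.347% to 2.04%) were absent from the other 9 lists. In contrast, 366 of these regions had peaks in 7 or more of the other lists, including 105 with a peak in all 9. Day 14 embryos held 95.4% of the 636 regions, 8-cell embryos 88.0%, blastocysts 81.4%, GV oocytes 49.4% and MII oocytes 23.1%. Regions with a 4-cell peak and no 2-cell peak had an 8-cell peak in 27.5% and a GV peak in 4.96% of cases. For regions with a 2-cell peak and no 4-cell peak, these shares were 17.4% and 2.71%. The share of jointly held regions that were absent from all further lists was low for every pair of short lists. Among the 15 pairs that can be formed from the GV, MII, 2-cell, 4-cell and both blastocyst lists, it ran from 0% to 1.07%, with the highest value for GV oocytes and 4-cell embryos (6 of 563 regions).

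**Figure D1:**
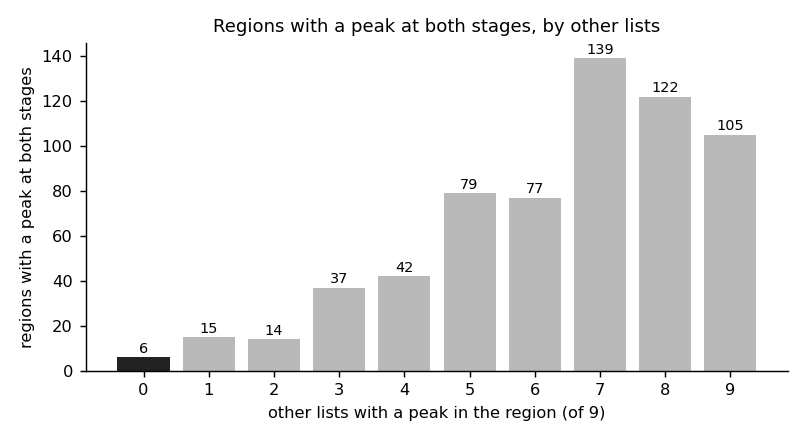
Number of regions with both a 4-cell and a 2-cell peak (y axis) by the number of the other 9 lists that also had a peak there (x axis), with the count printed above each bar. The 6 both-stage transient regions are the black bar at 0, and the most common number of other lists was 7, with 139 regions.

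The 6 both-stage regions lay on 5 autosomes, and each held 1 peak of either stage. On chromosome 9 the region at chr9:42861512-42861961 (UMD3.1, as all positions here) had a 4-cell peak of 430 bp and a 2-cell peak of 428 bp that shared 408 bp, the longest overlap of the 6. A second region on this chromosome, chr9:10605573-10606106, was the widest at 534 bp, and its 2-cell peak of 262 bp lay wholly inside the 4-cell peak of 534 bp. The region at chr15:116461-116845 lay 0.116 Mb from the start of its chromosome, with a 4-cell peak of 316 bp inside a 2-cell peak of 385 bp. At chr20:23083173-23083645 a 2-cell peak of 285 bp lay inside a 4-cell peak of 473 bp, and at chr5:99904471-99904949 one of 264 bp lay inside a 4-cell peak of 479 bp. At chr1:129283729-129284172 the overlap was the shortest, with 145 bp shared between a 4-cell peak of 352 bp and a 2-cell peak of 237 bp. The median distance between the centres of the 4-cell and 2-cell peaks was 37.8 bp in the 6 regions, against 73.5 bp in 602 regions found in further lists in which the peaks overlapped directly. The median overlap was 274.5 bp in the both-stage regions and 477.5 bp in those 602 regions. The peaks were also narrower in the 6, with medians of 451.5 bp (4-cell) and 274.5 bp (2-cell), against 702.5 and 546 bp. The median shared part was 57.7% of the 4-cell and 97.7% of the 2-cell peak in the 6, against 81.0% and 98.4%.

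The GV and MII lists, the only ones of earlier stages, held 4382 and 730 peaks, against 372509 at day 14. An earlier nearest peak was thus unlikely in advance. The nearest peak of another list was of a later stage in all 6 both-stage regions. It was a day 14 peak in 5 of the 6 regions, at a gap of 66 bp on chromosome 15, 78 bp on chromosome 5, 651 bp on chromosome 20, and 2712 and 3862 bp on chromosome 9. On chromosome 1 the nearest peak was one of 16-cell embryos at a gap of 1107 bp. All 6 were within 5 kb of a peak of another list and 3 within 1 kb (16.7%, or 1 region, without the day 14 list), against 74.8% within 5 kb and 36.8% within 1 kb for 4-cell-only regions, and 79.8% and 42.3% for 2-cell-only regions.

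Transient peaks were narrower than the other peaks of the same lists. The median width was 348 bp (quartiles 292 and 413 bp) for 4-cell peaks in transient regions and 400 bp (323 and 543 bp) for the other 4-cell peaks. For 2-cell peaks these medians were 297 bp (256 and 363 bp) and 364.5 bp (279 and 527 bp). No 4-cell peak was narrower than 233 bp and no 2-cell peak narrower than 230 bp, and the calling settings behind these bounds are not known. Width is not independent of the rule, because a wide peak is more likely to touch a peak of another list. The share was lower in each wider quintile of both lists. Transient peaks made up 49.7%, 48.0%, 44.5%, 37.4% and 15.4% of 4-cell peaks from the narrowest to the widest quintile (518 bp and more). In the 2-cell list the shares were 51.3%, 48.0%, 43.6%, 37.2% and 9.11%, the widest quintile starting at 478 bp. The 4-cell list held 140 peaks wider than its widest transient peak, and the 2-cell list 206.

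**Figure D2:**
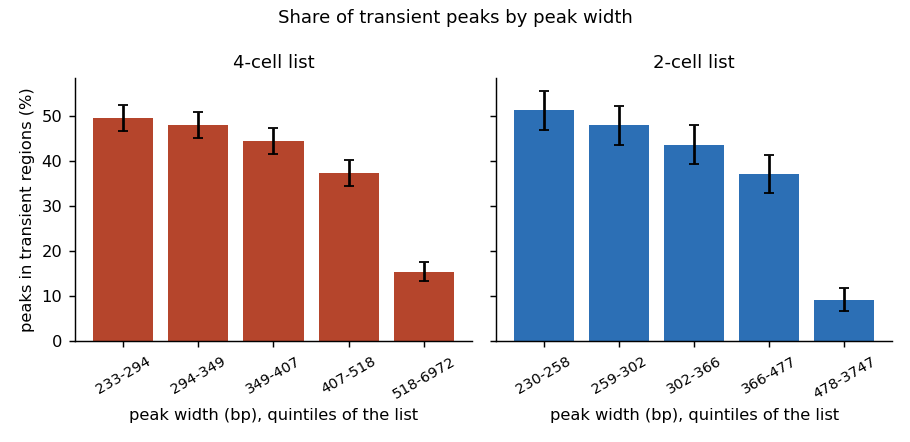
Share of peaks in transient regions (y axis, percent) in 5 quintiles of peak width (x axis, bp), for the 4-cell list on the left and the 2-cell list on the right. Error bars are 95% exact binomial intervals for counting error, and the bar of the widest quintile is the lowest in both lists, at 15.4% and 9.11%.

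The 5 widest 4-cell-only regions each spanned more than 1 kb. The first, at chr6:15942710-15943993, spanned 1284 bp, and the nearest peak of another list lay 4910 bp away at day 14. Behind it came chr1:85941885-85942998 (1114 bp), 1108 bp from a morula peak, and chr3:83830790-83831859 (1070 bp), 3380 bp from a 16-cell peak. Also on chromosome 3, chr3:60562401-60563459 (1059 bp) was the most isolated of the 5, with its nearest neighbour a 16-cell peak at 12023 bp. The region at chr10:26229116-26230123 (1008 bp) missed a day 14 peak by 43 bp.

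Among the 2-cell-only regions the widest spanned 774 bp, at chr26:31282941-31283714, and missed a day 14 peak by 5 bp. The next were chr13:72998345-72999075 (731 bp), chr8:75871994-75872716 (723 bp), chr9:76764375-76765079 (705 bp) and chr9:104471130-104471801 (672 bp). The region on chromosome 8 had a day 14 peak at 52 bp, and the first on chromosome 9 had peaks of the day 14, 8-cell, 16-cell and 2 morula lists within 303 to 867 bp. In contrast, the second on chromosome 9 had no peak of another list closer than 9719 bp.

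A part of the transient regions had a peak of another stage nearby. The 11 lists formed 482097 regions over 2661 Mb, so a peak was seldom far from any place. Whether the shares below differ from those of other places in the genome was not tested. Within 1 kb of a peak of 1 of the other 9 lists lay 36.8% (interval 34.8% to 38.8%) of the 4-cell-only and 42.3% (39.2% to 45.5%) of the 2-cell-only regions. Within 5 kb the shares were 74.8% and 79.8%. The median gap was 1771.5 bp for 4-cell-only and 1429.5 bp for 2-cell-only regions, and the largest gaps were 59967 and 52043 bp. The nearest peak belonged to day 14 embryos for 58.6% of the 4-cell-only and 64.5% of the 2-cell-only regions. It belonged to GV oocytes for 1.42% and 0.706%. The day 14 list was the longest of all, with 372509 peaks, against 88858 in the next longest (morulae) and 4382 in the GV list. The part of list length in these shares was not tested. Without the day 14 list the shares within 1 kb were 16.5% and 16.8%. For comparison, distances to the day 14, 8-cell, 16-cell and 2 morula lists were taken for other sets of regions absent from those lists. Within 1 kb lay 36.2% of 4-cell-only and 41.7% of 2-cell-only regions, against 43.8% of GV-only, 32.5% of MII-only, 24.1% of blastocyst-only and 17.8% of in vivo blastocyst-only regions. The interval of the 2-cell-only regions overlapped that of the GV-only regions, and the 4-cell-only value lay between those of the oocyte sets. Both early cleavage sets were above the regions of either blastocyst list, with intervals for counting error that did not overlap theirs.

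**Figure D3:**
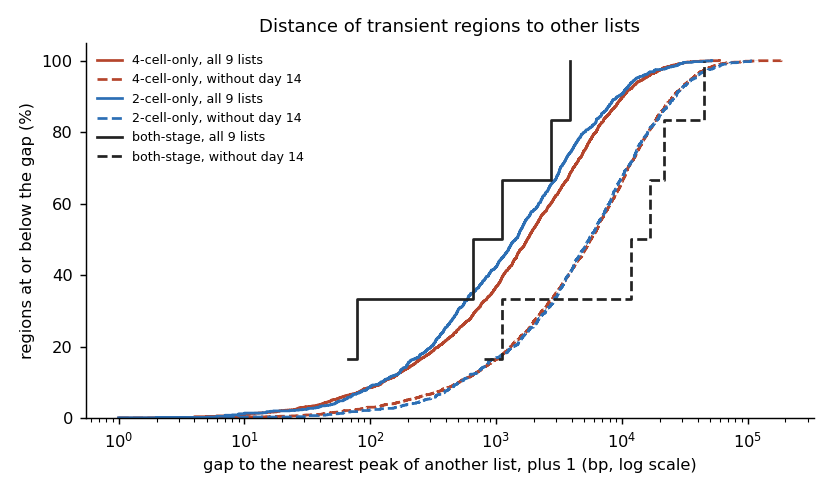
Cumulative share of transient regions (y axis, percent) by the gap to the nearest peak of another list (x axis, bp plus 1, log scale), for 4-cell-only, 2-cell-only and both-stage regions. Solid lines use all 9 other lists and dashed lines leave out day 14, which moves the share within 1 kb to 16.5% for 4-cell-only and 16.8% for 2-cell-only regions.

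At the threshold of the rule, 2 members touched a peak of another list without overlapping it, the 4-cell-only region chr27:5412221-5412559 and the 2-cell-only region chr18:22742524-22742832. Another, chr1:142533850-142534107 (4-cell-only), missed a day 14 peak by 1 bp. In all, 41 members had a gap of 1 to 10 bp. On the other side, 50 regions left out of the set overlapped a peak of another list by at most 10 bp. The smallest overlap was 1 bp, in 4-cell peaks at chr9:98410447-98410869 and chr23:28161752-28162036 and in the 2-cell peak at chr24:21943103-21943483, each with a day 14 peak.

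Few 4-cell-only regions had a 2-cell-only region within 1 kb, and the same was true of the other 2-cell regions. A 2-cell-only region lay within 1 kb of 6 of the 2260 4-cell-only regions and within 100 kb of 11.8% of them. One of the 1522 other 2-cell regions, a larger set, lay within 1 kb of 9 and within 100 kb of 10.5% of them. Seen from the 2-cell-only regions, a 4-cell-only region was within 1 kb in 6 of 992 cases and within 100 kb in 23.3%, against 7 cases and 24.5% for the 3388 other 4-cell regions. The closest pair, singled out after its value was seen, lay on chromosome 27 with a 4-cell-only region at chr27:22944674-22945047 and a 2-cell-only region at chr27:22944188-22944516, at a gap of 157 bp. Of the 1 Mb windows, 466 held regions of both kinds. These were 35.2% of the 1325 windows with a 4-cell-only region and 61.2% of the 761 windows with a 2-cell-only region. Of all 2678 windows, 49.5% held a 4-cell-only and 28.4% a 2-cell-only region.

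Transient regions were less clustered than the other early regions, with intervals for counting error that did not overlap. The other early regions were chosen by overlap with further lists, so places crowded with peaks fall among them in part by the rule. The part of this in the shares below was not tested. Windows were picked as the fullest by the same counts, a choice that the intervals do not cover. The 10 fullest windows held 3.41% of the 4-cell-only regions, against 9.68% of the 4-cell regions found in further lists. For the 2-cell stage these shares were 4.03% and 18%. A single window held 81 of the 328 other 4-cell regions counted in the 10 fullest. For the other 2-cell regions a single window held 71 of 274. The 10 fullest windows held 5.30% of GV-only, 6.05% of MII-only and 1.32% of 8-cell-only regions. They held 16.2% of blastocyst-only and 4.26% of in vivo blastocyst-only regions. Another region of the same kind lay within 10 kb of 7.30% of the 4-cell-only and 23.8% of the other 4-cell regions, and of 1.61% of the 2-cell-only and 27.9% of the other 2-cell regions. The sets differed in size, with 2260 4-cell-only against 3388 other 4-cell regions, and 992 2-cell-only against 1522 other 2-cell regions, and the part of size in these shares was not tested. Within 10 kb, the MII-only set of 397 regions had 0.504%, the GV-only set of 1698 regions 7.42%, the blastocyst-only set of 1178 regions 17.5%, the in vivo blastocyst-only set of 1173 regions 3.07% and the 8-cell-only set of 21881 regions 36.6%.

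The fullest window for 4-cell-only regions, between 100 and 101 Mb on chromosome 10, held 12 of them, and the next window on this chromosome, between 101 and 102 Mb, a further 7, the widest at chr10:101667132-101667638 (507 bp). The 12 were spread over 915 kb with a median gap of 59.1 kb, and the widest was chr10:100702593-100703097 (505 bp). In that window 12 of the 16 peaks of the 4-cell list were transient, and the 2-cell list had 1 peak. Between 15 and 16 Mb on chromosome 6 lay 9 4-cell-only regions, which included the widest of the set, and the window had no 2-cell and no oocyte peak. Between 10 and 11 Mb on chromosome 12, 7 of 9 4-cell peaks were transient, the widest at chr12:10477497-10477960 (464 bp). The window at the start of chromosome 14 (0 to 1 Mb) was of another kind, since its 10 4-cell-only regions, the widest at chr14:595450-596391 (942 bp), stood among 95 early regions found in further lists, and all 11 lists had 20 or more peaks there.

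The 2-cell-only regions numbered at most 5 in a window. Between 108 and 109 Mb on chromosome 6 there were 5, the widest at chr6:108798394-108798954 (561 bp), and between 104 and 105 Mb on chromosome 9, near its distal end, there were 5 beside 6 of the 4-cell-only kind, among them the region of 672 bp named above. The window between 156 and 157 Mb on chromosome 1 held 4, the widest at chr1:156939198-156939583 (386 bp). The window had no further 2-cell peak, and no 4-cell peak. Windows with 4 regions also lay between 128 and 129 Mb on chromosome 2 (chr2:128379796-128380247, 452 bp) and between 27 and 28 Mb on chromosome 4 (chr4:27758902-27759168, 267 bp).

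By chromosome, both kinds of transient region were sparse on X. X held 2.43% (interval 1.84% to 3.16%) of the 4-cell-only regions, against 5.67% (4.91% to 6.50%) of the other 4-cell regions. It held 1.71% (1.001% to 2.73%) of the 2-cell-only regions, against 5.58% (4.48% to 6.86%) of the other 2-cell regions. X makes up 5.59% of the positions spanned by the lists. A low X share was also found in the 8-cell-only (3.19%) and blastocyst-only (2.63%) regions, whereas the GV-only (5.65%) and MII-only (7.30%) regions were near or above the span. The sex of the pooled embryos is not given, and its part in the X share was not tested. Nor was the part of the rule, which chose the other early regions by overlap with further lists.

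By point value, the autosomes richest in transient regions were not the same ones at both stages. On each autosome named as richest below, the intervals of the 4-cell-only and 2-cell-only shares overlapped. Chromosome 27 held 2.23% to 3.65% of the 4-cell-only and 1.08% to 2.85% of the 2-cell-only regions. For chromosome 29 these intervals were 1.27% to 2.40% and 2.22% to 4.52%. A difference between the stages is thus not shown for the autosomes named as richest. The 4-cell-only regions reached 1.69 times the mean density of the set on chromosome 27, 1.42 times on chromosome 6 and 1.41 times on chromosome 10, against 1.97, 1.36 and 1.07 times for the other 4-cell regions. They were at 0.402 times on chromosome 22 and 0.458 times on chromosome 28, the lowest autosomal values, against 0.447 and 0.848 times for the other 4-cell regions. The 2-cell-only regions reached 1.67 times the mean on chromosome 29, 1.38 times on chromosome 25 and 1.33 times on chromosome 24, against 2.38, 1.30 and 0.613 times for the other 2-cell regions. Their lowest autosomal values were 0.755 times on chromosome 15 and 0.764 times on chromosome 13. Chromosome 28 thus stood at 0.458 times for 4-cell-only and 1.27 times for 2-cell-only regions, on counts of 18 and 22. Its intervals did not overlap, at 0.473% to 1.26% of the 4-cell-only and 1.39% to 3.34% of the 2-cell-only regions. Those of chromosome 1 did not overlap either, at 6.34% to 8.55% and 3.41% to 6.14%. These 2 were singled out among 29 autosomes after their values were seen. Chromosomes poor in other early regions were in part also poor in transient ones, as chromosome 22 at the 4-cell stage and chromosome 15 at the 2-cell stage (0.755 times, against 0.512 times for the other 2-cell regions). Chromosomes 12 and 20, singled out after their values were seen, were not. Chromosome 12 had 1.18 times the mean of 4-cell-only regions and 0.517 times that of the other 4-cell regions, and for the 2-cell stage 1.03 and 0.384 times. On chromosome 20 these values were 1.06 and 0.556 times at the 4-cell stage, and 1.19 and 0.437 times at the 2-cell stage. The gene-dense chromosomes 18, 19 and 25 together held 5.04% (4.18% to 6.03%) of the 4-cell-only and 7.66% (6.08% to 9.50%) of the 2-cell-only regions, on 6.50% of the span. The other 4-cell regions had 7.62% there (6.74% to 8.56%) and the other 2-cell regions 9.07% (7.67% to 10.6%). The intervals of the 2-cell-only and other 2-cell regions overlapped, and those of the 4-cell sets did not. Both sets of other early regions were chosen by overlap with further lists. The part of this choice in the shares on chromosomes 18, 19 and 25 was not tested. The share was 10.7% for GV-only, 9.32% for MII-only and 6.82% for 8-cell-only regions. Blastocyst-only regions had 0.679% and in vivo blastocyst-only regions 1.45%.

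**Figure D4:**
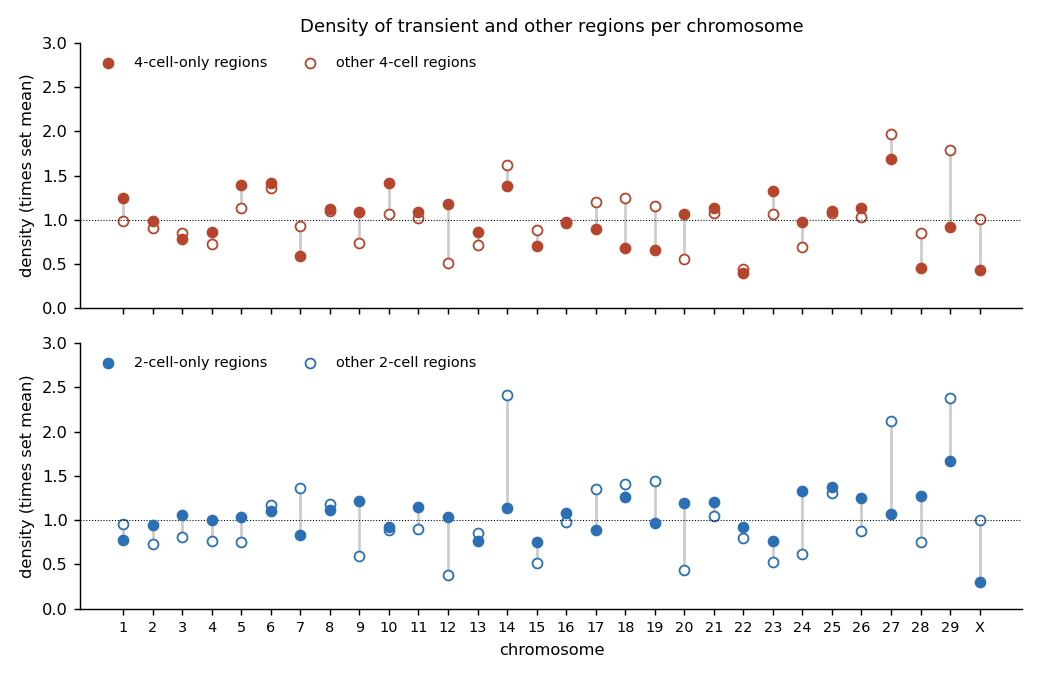
Regions per Mb on each chromosome divided by the mean of the set (y axis) for 4-cell-only regions (upper panel, filled) and 2-cell-only regions (lower panel, filled), with the other regions of the same stage as open circles. The dotted line is the mean of the set. On X the filled points are at 0.435 and 0.306 times the mean, and on chromosomes 12 and 20 they lie above the open ones.

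Transient regions, and also the other early regions, were more frequent toward the distal ends of autosomes than the span there. Cattle autosomes are acrocentric, with the centromere taken to be at the start of the sequence. The last 5 Mb held 12.3% (10.9% to 13.7%) of the autosomal 4-cell-only and 11.9% (9.93% to 14.1%) of the 2-cell-only regions, on 5.77% of the autosomal span. The first 5 Mb held 5.08% and 5.85%. The regions found in further lists had 9.73% (8.72% to 10.8%) at the 4-cell and 9.95% (8.45% to 11.6%) at the 2-cell stage in the last 5 Mb. In the first 5 Mb they had 7.76% and 12.9%. Of the 326 early regions found in further lists and lying in the first 5 Mb, 95 were in 1 window, at the start of chromosome 14 (0 to 1 Mb). The distal interval of the 2-cell-only regions overlapped that of the other 2-cell regions, and that of the 4-cell-only regions lay just above that of the other 4-cell regions. Of the 271 distal 4-cell-only regions, 12 and 7 lay in 2 neighbouring windows of chromosome 10. Without the 10 fullest windows, 16.4% of the 4-cell-only regions lay within 5 Mb of either end, against 17.4%. The distal share alone was not recomputed. The part of the rule, which chose the other early regions by overlap, was not tested. The distal share of the transient regions lay below that of GV-only regions, 20.8%. It lay above those of the 8-cell-only (4.64%), blastocyst-only (1.48%) and in vivo blastocyst-only regions (0.438%). The MII-only regions had 9.24% (6.48% to 12.7%), an interval that overlapped those of both early sets.

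The 4-cell-only regions lay less often than the 2-cell-only regions in surroundings rich in day 14 peaks, with intervals for counting error that did not overlap. When 1 Mb windows were ranked by their number of day 14 peaks, the fullest quintile (231 or more peaks) held 18.3% (16.7% to 20.0%) of the 4-cell-only regions and 27.6% (24.9% to 30.5%) of the 2-cell-only regions. The emptiest quintile (up to 30 peaks) held 14.7% and 10.8%. Of the other 4-cell regions 38.0% were in the fullest quintile, and of the other 2-cell regions 43.9%, but these were in part chosen by overlap with day 14 peaks. Sets chosen in the same way as the transient regions had 34.5% (GV-only), 22.9% (MII-only), 18.4% (8-cell-only), 8.15% (blastocyst-only) and 2.98% (in vivo blastocyst-only). The 2-cell-only value thus lay between those of the GV-only and 8-cell-only regions, and the 4-cell-only value was close to that of the 8-cell-only regions. With windows ranked by morula peaks in place of day 14 peaks, the fullest quintile held 20.1% (18.5% to 21.8%) of the 4-cell-only and 22.9% (20.3% to 25.6%) of the 2-cell-only regions, and the intervals overlapped. Day 14 peaks covered 13.6% of the bases of the fullest windows and 0.435% of those of the emptiest, and a region that overlaps one cannot be transient. The part of this in the shares was not tested.

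**Figure D5:**
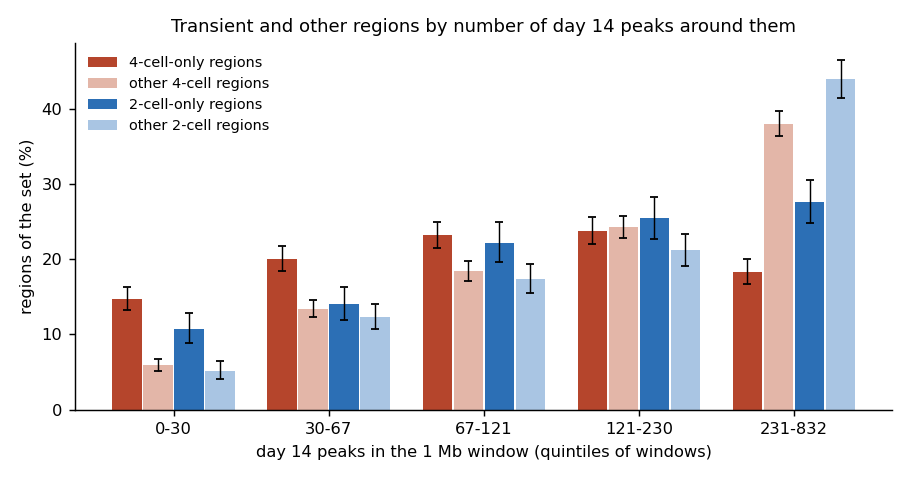
Share of each set of regions (y axis, percent) in quintiles of 1 Mb windows ranked by their number of day 14 peaks (x axis), for 4-cell-only, other 4-cell, 2-cell-only and other 2-cell regions. Error bars are 95% exact binomial intervals for counting error; in the fullest quintile 4-cell-only regions stood at 18.3% and 2-cell-only regions at 27.6%.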

How the data were processed

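The authors deposited 1 list per stage, merged from the peaks of its libraries per the series description, with 3 columns (chromosome, start, end) and no count, score or depth. Bowtie2 2.3, MACS2, bedtools, HOMER and build UMD3.1 are named in the submitters' processing notes, with no calling threshold, merging rule or shift for the transposase cut. These settings and the unknown depth decide which peaks a list holds. Starts were read as counted from 0 and are printed counted from 1. The regions were joined with Python 3.11.15, numpy 2.4.6 and pandas 2.3.3, intervals came from scipy 1.17.1 and figures from matplotlib 3.10.9. Chromosome lengths were the last position in any list, 2661 Mb in all. The classes were tested on simulated lists, where all 4 planted classes were recovered, and the gaps of all 3258 members were equal to those of bedtools 2.31.1. Regions named were the 5 widest of each kind, the 5 fullest 1 Mb windows with their widest member, and the 3 nearest to the threshold on either side, ties in chromosome order. Members and rules were chosen with earlier results of these data known. A gene table of another assembly was not used. The alternatives tried are given with the limits.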

Additional observations from a re-analysis of the deposited data

How the results depend on the processing

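No paired analysis was possible because each group had 1 merged list and no result came from a test, and for the same reason no library could be left out. Of 123 values recomputed under another setting, 85 stayed within 1.5 times a count or width, or within the interval of a share, and 38 moved. The number of transient regions depended on what counts as shared. With peaks widened by 1000 bp there were 1043 4-cell-only and 409 2-cell-only regions, 18.2% of 4-cell and 15.8% of 2-cell peaks, and with 250 bp the shares were 29.3% and 26.3%. With an overlap of 50% of both peaks required, there were 3800 4-cell-only, 1613 2-cell-only and 35 both-stage peaks, and shares of 66.0% and 62.3%. In another setting, peaks narrower than the median width of all peaks (329 bp) were dropped from every list. Of the peaks left, 43.6% of the 4-cell and 36.1% of the 2-cell peaks were transient, with 476 2-cell-only regions. Most day 14 peaks, with a median width of 216 bp, were dropped too. The 43.6% is thus not the share of wide 4-cell peaks under the full lists, where wider peaks were less often transient. Without the day 14 list there were 16 both-stage regions, and shares of 53.2% and 52.2%. Shares were 43.2% and 40.6% without the 16-cell and morula lists, and 41.3% of the 4-cell peaks without the 8-cell list. Leaving out the in vivo, oocyte or blastocyst lists moved none of these counts and shares. Neither did 2 settings added after seeing the data, reading positions as closed intervals (2259 4-cell-only and 991 2-cell-only regions) and asking for direct overlap of each peak. The width of the other regions was 400 bp (4-cell) and 364.5 bp (2-cell) when the stage peak was taken in place of the joined region. Among 4-cell-only regions of at least their median width, 1.76% were on X. Leaving out the 10 fullest windows or counting clusters once moved no share on X or on chromosomes 18, 19 and 25. In windows of 0.5 Mb, the 10 fullest held 2.57% of the 4-cell-only regions. Other distances gave other shares by construction. A neighbour lay within 1 kb of 1.15% of 4-cell-only and 0.403% of 2-cell-only regions, and within 100 kb of 29.1% and 12.0%. Within 2 Mb of an autosome end lay 6.76% and 8.72%, and within 10 Mb 30.8% and 33.3%. A peak of another list was within 250 bp of 16.5% and 17.8%, and within 5 kb of 74.8%, 79.8% and, for both-stage regions, 100%. Without the day 14 list, 16.5% and 16.8% were within 1 kb of such a peak.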
